A study of Mus musculus with 4 samples.

Results

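The mitosis genes are 56 genes that dividing cells express in G2 and M phase, among them cyclins and their kinase, spindle motors, kinetochore proteins and cytokinesis factors. They were taken by symbol from a list, and all 56 had a row among the 13978 genes of the deposited count matrix. Their unique molecular identifiers (UMIs, each standing for 1 captured transcript) were summed in each cell and divided by the cell's UMI total, which gave the mitosis share of the cell. The matrix held 5882 host bone marrow cells from the B-ALL environment and 5882 from PBS controls. In the first group, wild-type CD45.1 mice had received 150000 primary tumor cells into the tail vein, taken from a lymph node of 1 leukemic Cd45.2+/+ Ebf1+/- Pax5+/- mouse (LN768). In the second, wild-type CD45.1 mice had received PBS. After 3 weeks, KIT+ Lin- CD45.2- CD45.1+ marrow cells were sorted from both groups and profiled with the 10x Chromium 3' kit, version 3. The sort selects for immature host cells and against the transplanted CD45.2+ cells.

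Most of these genes are silent in resting cells and are switched on together before division. In resting cells the DREAM repressor complex holds their promoters off, through a short element called the CHR. In cycling cells B-MYB and FOXM1 act at the same promoters, and the factor NF-Y binds CCAAT boxes beside the CHR. In the marrow, most long-lived hematopoietic stem cells (HSC) are out of cycle, while lineage progenitors divide often. Megakaryocyte precursors are a special case, since they repeat mitosis without completing cytokinesis and become polyploid.

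RefSeq promoters on mouse build GRCm38.p6, from 250 bases before to 50 after each transcription start, were given for 50 of the 56 genes, the others being Smc4, Cdca2, Tpx2, Aurkb, Dlgap5 and Cdc25c. The CHR was searched as TTTGAA or TTCGAA and the CCAAT box as CCAAT, both on either strand. A CHR was found in 41 of the 56 promoters of these 50 genes (73.2%), against 19.2% of all 32851 promoters of the same length. A CCAAT box was found in 43 of 56 (76.8%), against 37.4% of all promoters, and at least 2 of them in 57.1%, against 11.7%. Both elements stood together in 35 of 56 promoters (62.5%), against 7.52% of all. A match is a description of letters and shows no binding. The promoters of 4 genes named in the results below are shown. Ccnb2 is a cyclin gene with both elements, and Gas2l3 had the highest fold over all cells. Ect2 had the lowest level in 1 class of cells, and Cks2 the lowest fold over all cells. Capitals mark the CHR and CCAAT matches, and each sequence runs 5' to 3' on the strand of its gene.
Ccnb2, chr9:70421505-70421804, minus strand: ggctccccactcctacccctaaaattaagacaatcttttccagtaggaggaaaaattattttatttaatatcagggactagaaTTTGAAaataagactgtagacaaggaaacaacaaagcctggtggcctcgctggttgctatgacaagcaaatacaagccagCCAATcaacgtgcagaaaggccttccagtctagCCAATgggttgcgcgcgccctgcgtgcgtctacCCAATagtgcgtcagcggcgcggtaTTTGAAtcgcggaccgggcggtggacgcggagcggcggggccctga
Gas2l3, chr10:89443918-89444217, minus strand: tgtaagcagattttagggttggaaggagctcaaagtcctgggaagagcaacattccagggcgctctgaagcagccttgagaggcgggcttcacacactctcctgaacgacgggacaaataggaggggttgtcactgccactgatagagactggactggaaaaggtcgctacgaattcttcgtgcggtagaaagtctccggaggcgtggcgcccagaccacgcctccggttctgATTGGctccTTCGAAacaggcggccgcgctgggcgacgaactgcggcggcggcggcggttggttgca
Ect2, chr3:27153829-27154128, minus strand: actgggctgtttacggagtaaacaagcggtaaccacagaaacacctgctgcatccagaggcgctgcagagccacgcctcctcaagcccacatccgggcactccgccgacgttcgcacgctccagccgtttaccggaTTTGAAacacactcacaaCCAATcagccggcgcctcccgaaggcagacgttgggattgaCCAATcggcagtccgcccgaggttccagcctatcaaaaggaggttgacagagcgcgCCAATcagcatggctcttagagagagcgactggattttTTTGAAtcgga
Cks2, chr13:51644982-51645281, plus strand: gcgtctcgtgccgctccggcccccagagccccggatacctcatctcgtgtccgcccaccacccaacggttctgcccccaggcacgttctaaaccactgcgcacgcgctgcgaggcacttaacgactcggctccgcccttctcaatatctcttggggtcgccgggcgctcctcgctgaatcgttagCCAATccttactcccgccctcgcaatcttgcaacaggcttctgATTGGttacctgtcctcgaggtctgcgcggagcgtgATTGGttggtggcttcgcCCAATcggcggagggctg
Ccnb2 and Ect2 each held 2 CHR matches and 3 CCAAT boxes, Gas2l3 held 1 of each, and Cks2 held 4 CCAAT boxes and no CHR match.

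The labels name 2 samples in each group, but the cell names carry the group only, so each group counts as 1 sample. No test between groups was therefore possible. The 95% intervals given below cover counting error alone, and differences between animals are not part of them. The median UMI total of a cell was 10458 in the B-ALL environment (357 to 56671) and 10189 in PBS controls (3070 to 48408). Mitochondrial genes gave 5.14% of UMIs in the B-ALL environment and 3.56% in PBS controls. In all, 18 cell barcodes occurred in both groups.

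Cells were put into classes by the UMIs of marker lists per 10000 UMIs of the cell, and none of the 56 genes is in any marker list. The cuts were set after the marker scores had been seen, and a class is a range of a score rather than a cell type. Of the 10 classes, 9 were led by genes of their own list and are called HSC-like, lymphoid-primed-like, granulocyte-monocyte-like, monocyte-like, neutrophil-like, basophil and mast-like, early erythroid-megakaryocyte-like, megakaryocyte-like and erythroid-like. The class cut by Cd34, Adgrl4, Angpt1, Cd27 and Egfl7 had 2 HSC markers and 1 of its own among its 10 leading genes. It was left unnamed and is called the Cd34-Adgrl4 class. The neutrophil-like class had 2 of its own markers and 2 granulocyte-monocyte markers among its 10 leading genes. Its median granulocyte-monocyte marker level was 189 UMIs per 10000 in the B-ALL environment and 218 in PBS controls. For its own markers these were 54.9 in the B-ALL environment and 76.3 in PBS controls. No mitosis gene was among the 10 leading genes of any class. Class sizes differed between the groups, with 957 HSC-like cells in the B-ALL environment and 127 in PBS controls, and 240 erythroid-like cells in the B-ALL environment and 1428 in PBS controls. Marker levels less than 25% above the cut occurred in 196 HSC-like cells from the B-ALL environment and 15 from PBS controls. For megakaryocyte-like cells these were 56 of 275 in the B-ALL environment and 26 of 275 in PBS controls, and for erythroid-like cells 21 in the B-ALL environment and 61 in PBS controls. By map cluster, 28.7% of the Cd34-Adgrl4 class lay in cluster 13 in the B-ALL environment, and 27.0% in cluster 12 in PBS controls, while every other class had the same largest cluster in both groups. No class was given to 832 cells of the B-ALL environment and 183 of PBS controls. Map cluster 19, with 32 cells in the B-ALL environment and 21 in PBS controls, was led by Trbc1 and Tcf7. It held 9.29% of the lymphoid-primed-like class in the B-ALL environment. Cluster 8, with 222 cells in the B-ALL environment and 146 in PBS controls, was led by Igkc and hemoglobin genes. Ighm and the mitosis gene Ccnb2 were also among its 10 leading genes. Its best marker list was that of B and leukemic B cells, and the cluster was left unnamed. Cells of both clusters stayed in the sums.

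Over all cells the total output of the mitosis genes was close in the 2 groups, while single cells were spread more widely in the B-ALL environment. Mitosis genes gave 0.966% of all UMIs in the B-ALL environment and 0.919% in PBS controls, a log2 ratio of 0.07. The mean share per cell was 0.777 ± 0.745% in the B-ALL environment and 0.794 ± 0.655% in PBS controls (SD over cells, n = 5882 each). The median cell had 0.493% in the B-ALL environment and 0.528% in PBS controls. The 10th percentile lay at 0.185% in the B-ALL environment and 0.278% in PBS controls, and the 90th at 1.87% in the B-ALL environment and 1.71% in PBS controls. Both ends of the distribution over all cells lay further out in the B-ALL environment. Within classes the upper end did not always do so. The 90th percentile was lower in the B-ALL environment in the HSC-like, Cd34-Adgrl4, monocyte-like, neutrophil-like and early erythroid-megakaryocyte-like classes. It was higher in the other classes. The part of class sizes in the spread over all cells was not tested.

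To compare cells at equal depth, each was thinned to 3000 UMIs, which left out 179 shallower cells in the B-ALL environment and 0 in PBS controls. The share was low, under 0.3%, in 1573 of 5703 cells in the B-ALL environment (27.6%, exact binomial interval 26.4 to 28.8), against 828 of 5882 in PBS controls (14.1%, 13.2 to 14.99). It was high, at least 1.5%, in 868 cells in the B-ALL environment (15.2%, 14.3 to 16.2), against 834 in PBS controls (14.2%, 13.3 to 15.1). Without thinning, low cells made up 29.5% in the B-ALL environment, against 13.3% in PBS controls, and high cells 14.7% in the B-ALL environment, against 13.3% in PBS controls. A share of at least 3% occurred in 137 cells in the B-ALL environment (2.40%), against 85 in PBS controls (1.45%). With equal numbers of cells of each class, low cells made up 21.7% in the B-ALL environment and 16.7% in PBS controls, a difference of 4.99 percentage points in place of 13.5.

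**Figure D1:**
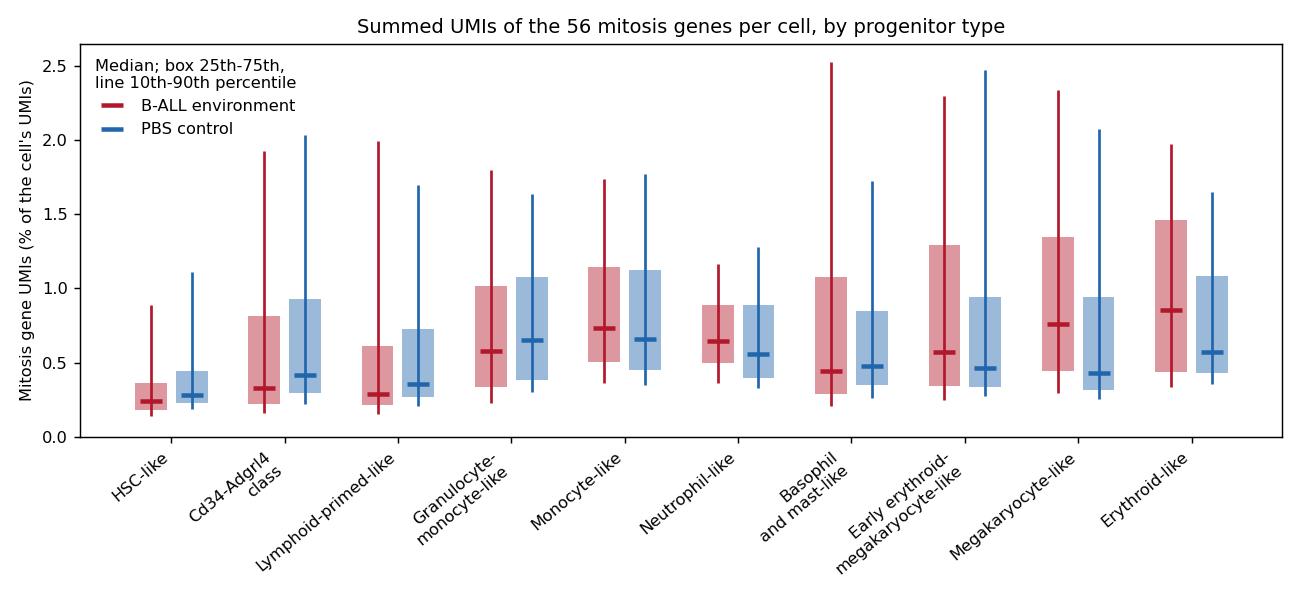
Mitosis gene UMIs as a percentage of the cell's UMIs (y axis) in 10 classes of cells (x axis), B-ALL environment in red and PBS control in blue. Bars mark medians, boxes the 25th to 75th and lines the 10th to 90th percentiles over cells; the median of HSC-like cells was 0.241% in the B-ALL environment and 0.279% in PBS controls, and that of megakaryocyte-like cells 0.763% in the B-ALL environment and 0.431% in PBS controls.

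Low cells were more frequent in the B-ALL environment in the HSC-like, Cd34-Adgrl4, lymphoid-primed-like and granulocyte-monocyte-like classes. In HSC-like cells, the share was low in 552 of 909 cells in the B-ALL environment (60.7%, 57.5 to 63.9), against 53 of 127 in PBS controls (41.7%, 33.0 to 50.8). In the Cd34-Adgrl4 class low cells made up 41.6% in the B-ALL environment (38.4 to 44.8), against 24.0% in PBS controls (20.8 to 27.3). Lymphoid-primed-like cells had 48.6% in the B-ALL environment (42.8 to 54.5) and 31.5% in PBS controls (26.6 to 36.7). Granulocyte-monocyte-like cells had 21.6% in the B-ALL environment (17.9 to 25.7) and 11.2% in PBS controls (8.57 to 14.3). In these 4 classes the counting intervals of the 2 groups did not overlap. In neutrophil-like cells the order was the other way, with 4.58% low cells in the B-ALL environment (3.07 to 6.56) and 9.02% in PBS controls (7.23 to 11.1). Megakaryocyte-like cells had 10.6% in the B-ALL environment (7.19 to 15.02) and 19.6% in PBS controls (15.1 to 24.8). The intervals overlapped in the monocyte-like, basophil and mast-like, early erythroid-megakaryocyte-like and erythroid-like classes.

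The difference in low cells kept its direction in each of the HSC-like, Cd34-Adgrl4, lymphoid-primed-like and granulocyte-monocyte-like classes under each of the 8 alternatives run, at 2.34 to 25.9 percentage points. With clusters of the authors' map in place of marker classes, HSC-like cells had 55.0% low cells in the B-ALL environment and 29.1% in PBS controls. Among cells of 8000 to 16000 UMIs 148 of 302 HSC-like cells were low in the B-ALL environment, and 5 of 20 in PBS controls. Low cells had fewer UMIs than other cells in both groups, with medians of 6827 and 13176.5 in the B-ALL environment, and of 6706.5 and 11142.5 in PBS controls (low cells first). Mitochondrial genes gave 6.54% of the UMIs of low cells and 4.87% of other cells in the B-ALL environment, and 3.80% and 3.53% in PBS controls. Their part in the frequency of low cells was not tested.

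**Figure D2:**
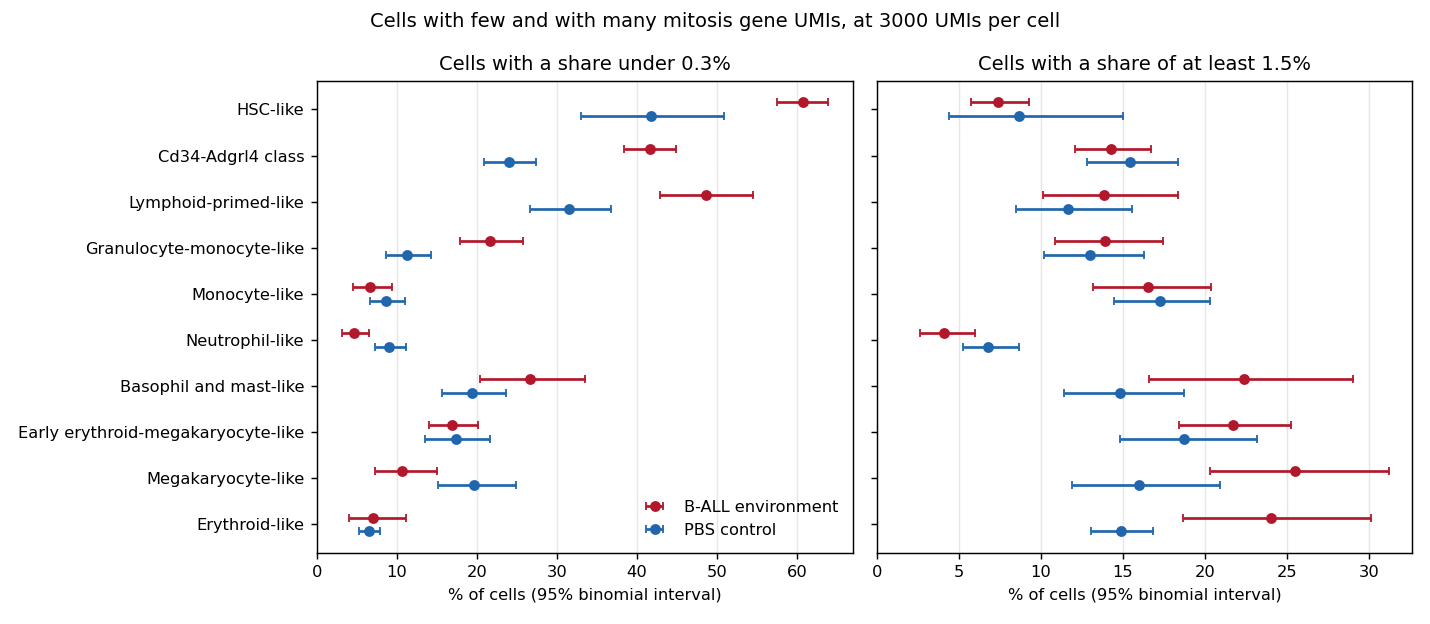
Percentage of cells with a mitosis share under 0.3% (left) and of at least 1.5% (right) after thinning to 3000 UMIs, by class (rows), B-ALL environment in red above PBS control in blue. Lines are exact 95% binomial intervals; low cells were more frequent in the B-ALL environment in the upper 4 classes, and high cells in the erythroid-like class at 24.0%, against 14.8% in PBS controls.

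High cells were more frequent in the B-ALL environment in 6 of the 10 classes, and the intervals of the groups were apart in 1 of these, the erythroid-like class. Erythroid-like cells had 55 of 229 high cells in the B-ALL environment (24.0%, 18.6 to 30.1) and 212 of 1428 in PBS controls (14.8%, 13.04 to 16.8), and these intervals did not overlap. At a share of at least 3% the order turned, with 1 erythroid-like cell in the B-ALL environment (0.437%) and 19 in PBS controls (1.33%). Megakaryocyte-like cells had 25.5% in the B-ALL environment (20.3 to 31.2) and 16.0% in PBS controls (11.9 to 20.9). Basophil and mast-like cells had 22.3% in the B-ALL environment (16.6 to 29.0) and 14.8% in PBS controls (11.4 to 18.7). Early erythroid-megakaryocyte-like cells had 21.7% in the B-ALL environment and 18.7% in PBS controls, and lymphoid-primed-like cells 13.9% in the B-ALL environment and 11.7% in PBS controls. In granulocyte-monocyte-like cells the share was high in 63 of 453 in the B-ALL environment and 65 of 500 in PBS controls. The intervals overlapped in these 5 classes. HSC-like cells had 67 of 909 high cells in the B-ALL environment (7.37%, 5.76 to 9.27) and 11 of 127 in PBS controls (8.66%, 4.40 to 14.97), a difference within counting error. Neutrophil-like cells had the fewest, 4.09% in the B-ALL environment (2.67 to 5.98) and 6.79% in PBS controls (5.24 to 8.64), with overlapping intervals.

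The cells with a high share held more UMIs and a smaller share of S phase UMIs than the other cells of their group. Their median UMI total was 1.70 times that of other cells in the B-ALL environment and 1.46 times in PBS controls. The 36 S phase genes, such as Pcna and the Mcm helicase genes, gave 0.419% of their UMIs in the B-ALL environment and 0.402% in PBS controls, against 0.619% and 0.581% in other cells of the same groups. In HSC-like cells the S phase share was not smaller in high cells. It was 1.04 times that in other cells in the B-ALL environment and 1.36 times in PBS controls. These values rest on 67 high cells in the B-ALL environment and 11 in PBS controls, and no interval was computed. In both groups Hmgb2, a chromatin protein also present in interphase, took the largest part of the mitosis UMIs of high cells, 15.4% in the B-ALL environment and 16.6% in PBS controls. Top2a, which untangles replicated DNA, took 7.63% in the B-ALL environment and 7.32% in PBS controls. Mki67, which coats mitotic chromosomes, took 6.91% in the B-ALL environment (6.82 to 6.99) and 5.77% in PBS controls (5.68 to 5.86). Transcript ends were counted, so these shares were not divided by transcript length.

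For single genes, UMIs were summed over the cells of a group and scaled to CPM, a level relative to the UMI total of the group, with TMM factors, and folds are the B-ALL environment over PBS control. Over all cells 1 mitosis gene was more than 1.5-fold higher and 0 were more than 1.5-fold lower in the B-ALL environment. Of all 13978 genes, 12.6% were past that fold upward and 8.08% downward, so the mitosis genes held a smaller part of both. Their median log2 fold was 0.08, against 0.002 for all genes, with 40 genes above 0 and 16 below. The gene past the fold was Gas2l3, which links microtubules and actin in dividing cells, with 50.5 CPM in the B-ALL environment and 30.4 CPM in PBS controls (log2 fold 0.73, 0.66 to 0.81). With equal numbers of cells of each class its log2 fold was 0.33, and no mitosis gene was past the fold.

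Among kinases, cyclins and their partners, Cks2 had the lowest fold of the 56 over all cells. This small subunit that binds cyclin-dependent kinases had 325 CPM in the B-ALL environment and 452 CPM in PBS controls (log2 fold -0.48, -0.50 to -0.45), and it was below 0 in 8 of 10 classes. With equal numbers of cells of each class its fold was -0.25 (-0.28 to -0.22), and Knstrn was lowest at -0.30. Its relative Cks1b had 315 CPM in the B-ALL environment and 314 CPM in PBS controls. Aurka, the kinase that matures centrosomes, had the highest fold of this role, with 41.2 CPM in the B-ALL environment and 33.0 CPM in PBS controls (log2 fold 0.32, 0.24 to 0.40). Cdk1, the kinase that drives entry into mitosis, had 115 CPM in the B-ALL environment and 117 CPM in PBS controls. The log2 folds of the B cyclins were 0.28 for Ccnb1 and 0.07 for Ccnb2.

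Checkpoint and chromosomal passenger genes lay between -0.06 for the kinase Ttk and 0.24 for the kinase Bub1 on the log2 scale. Cdca8 and Birc5, both subunits of the passenger complex, had folds of 0.07 and 0.06, and its kinase Aurkb had 0.14. Of the kinetochore genes, Cenpf was highest at 0.40 with 197 CPM in the B-ALL environment and 149 CPM in PBS controls. Knstrn, which helps align chromosomes, was lowest at -0.26, and it was below 0 in 9 of 10 classes. Cenpa, the histone that marks centromeres, had a fold of -0.01.

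Of the spindle genes, the tubulin gene Tubb4b was lowest, with 429 CPM in the B-ALL environment and 477 CPM in PBS controls (log2 fold -0.15, -0.17 to -0.13). Tpx2, which activates Aurka on the spindle, was at 0.24. In cytokinesis, Prc1, which bundles the midzone microtubules, was highest at 0.19, and Ect2, which is needed to form the cleavage furrow, was lowest at -0.24 (-0.32 to -0.16). With equal numbers of cells of each class the fold of Ect2 was -0.13 (-0.23 to -0.04). Kif23, the midzone motor that recruits Ect2 through its partner, was at 0.04. Ube2c, which carries ubiquitin to the anaphase-promoting complex, had 194 CPM in the B-ALL environment and 159 CPM in PBS controls (log2 fold 0.29, 0.25 to 0.33). Its co-activator Cdc20 was at -0.06, Cdca3 at 0.01 and G2e3, lowest of the ubiquitin genes, at -0.07.

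Of the chromatin genes, Mki67 had 520 CPM in the B-ALL environment and 410 CPM in PBS controls (log2 fold 0.34, 0.32 to 0.37). Top2a was at 0.10 and Hmgb2 at -0.07. Of the nuclear envelope genes, the Ran regulator Rangap1 was at 0.26, the lamina protein gene Tmpo at 0.02 and the lamin B receptor gene Lbr at -0.15. Aurka, Cenpf, Ckap2, Ncapd2, Rangap1, Tpx2 and Ube2c were above 0 in all 10 classes.

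**Figure D3:**
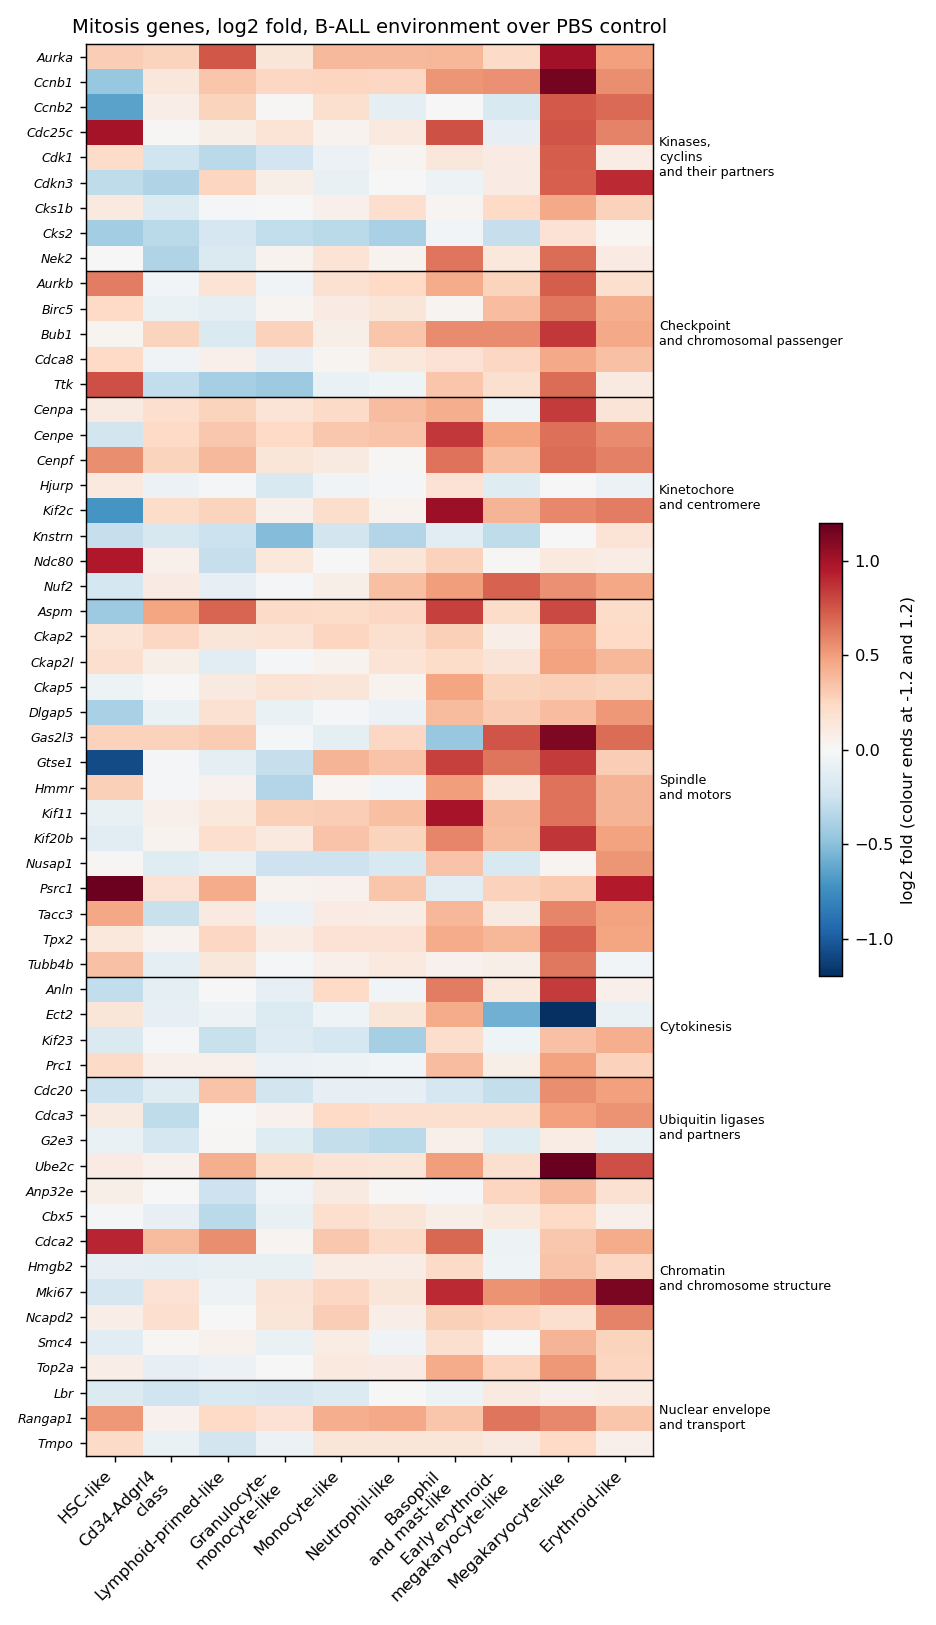
Log2 fold of each of the 56 mitosis genes (rows, grouped by role) in 10 classes of cells (columns), B-ALL environment over PBS control, red higher and blue lower. The megakaryocyte-like column is red except for Ect2 at -1.37, Hjurp at -0.01 and Knstrn just under 0.

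Over all cells of a class, megakaryocyte-like cells had the most mitosis genes past the fold. On the map, without the deepest cells and among cells of 8000 to 16000 UMIs other classes had more. For these and the other alternative sets of cells below, the share of all genes past the fold was not counted. Their counts of mitosis genes are given without that comparison. In megakaryocyte-like cells 24 were more than 1.5-fold higher and 1 more than 1.5-fold lower in the B-ALL environment, against 9.08% and 13.4% of all genes tested, and the median log2 fold was 0.57. Ube2c had 377 CPM in the B-ALL environment and 166 CPM in PBS controls (log2 fold 1.18, 1.03 to 1.34). Ccnb1 had 143 CPM in the B-ALL environment and 64.8 CPM in PBS controls (log2 fold 1.14, 0.90 to 1.40). Gas2l3 had 99.0 CPM in the B-ALL environment and 45.7 CPM in PBS controls (log2 fold 1.12, 0.82 to 1.42). The 10 classical markers (Mki67, Top2a, Cdk1, Ccnb1, Ccnb2, Cdc20, Aurka, Aurkb, Birc5 and Ube2c) were all above 0, between 0.52 for Top2a and 1.18 for Ube2c. Hjurp, which loads centromeric histone, lay at -0.01, Knstrn just under 0 and the spindle gene Nusap1 at 0.04.

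Depth and marker level also differed between the groups here. The median UMI total in this class was 15607 in the B-ALL environment and 8294 in PBS controls. Its median marker level was 31.4 UMIs per 10000 in the B-ALL environment and 55.2 in PBS controls. Granulocyte-monocyte markers had medians of 1.58 UMIs per 10000 in the B-ALL environment and 6.68 in PBS controls. The second largest map cluster of the class was cluster 11 in the B-ALL environment, with 18.2% of its cells, and cluster 7 in PBS controls, with 22.2%. Without the 5% of cells of each group with the highest UMI totals, 238 megakaryocyte-like cells were left in the B-ALL environment and 272 in PBS controls. Then 5 genes were more than 1.5-fold higher and 1 lower, and the log2 ratio of the summed share was 0.15 in place of 0.41. Among cells of 8000 to 16000 UMIs that ratio was -0.25, with 0 genes higher and 11 lower past the fold. In the map clusters with megakaryocyte markers it was 0.26, with 8 genes higher and 1 lower. The part of depth, marker levels and clusters in these folds was otherwise not tested.

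Ect2 stood apart from the other mitosis genes in megakaryocyte-like cells. Its level there was the lowest of the 10 classes in both groups, 3.47 CPM (16 UMIs) in the B-ALL environment and 8.98 CPM (23 UMIs) in PBS controls. In the other 9 classes it lay between 22.8 and 64.6 CPM in the B-ALL environment and between 20.6 and 47.5 CPM in PBS controls, so the megakaryocyte-like level did not overlap with them. Early erythroid-megakaryocyte-like cells had 23.0 CPM in the B-ALL environment and 34.2 CPM in PBS controls (log2 fold -0.57, -0.95 to -0.19). Of the other cytokinesis genes in megakaryocyte-like cells, Anln, which scaffolds the contractile ring, had 68.6 CPM in the B-ALL environment and 38.2 CPM in PBS controls, and Prc1 had 222 CPM in the B-ALL environment and 158 CPM in PBS controls. Kif23 had 48.2 CPM in the B-ALL environment and 37.9 CPM in PBS controls. In high cells of this class, Ect2 gave 0.0277% of the mitosis UMIs in the B-ALL environment (0.0133 to 0.0510) and 0.112% in PBS controls (0.0610 to 0.187), while over all high cells it gave 0.367% in the B-ALL environment and 0.477% in PBS controls.

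The fold of Ect2 between the groups in this class, -1.37 (-2.39 to -0.39), rests on these few UMIs, and Ect2 is named here after its values were seen. In the megakaryocyte map clusters Ect2 had 8.48 CPM in the B-ALL environment and 12.97 CPM in PBS controls (log2 fold -0.61, -1.15 to -0.06). Its promoter, shown above, holds as many matches of both elements as that of Ccnb2. The part of such matches in any fold was not tested.

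**Figure D4:**
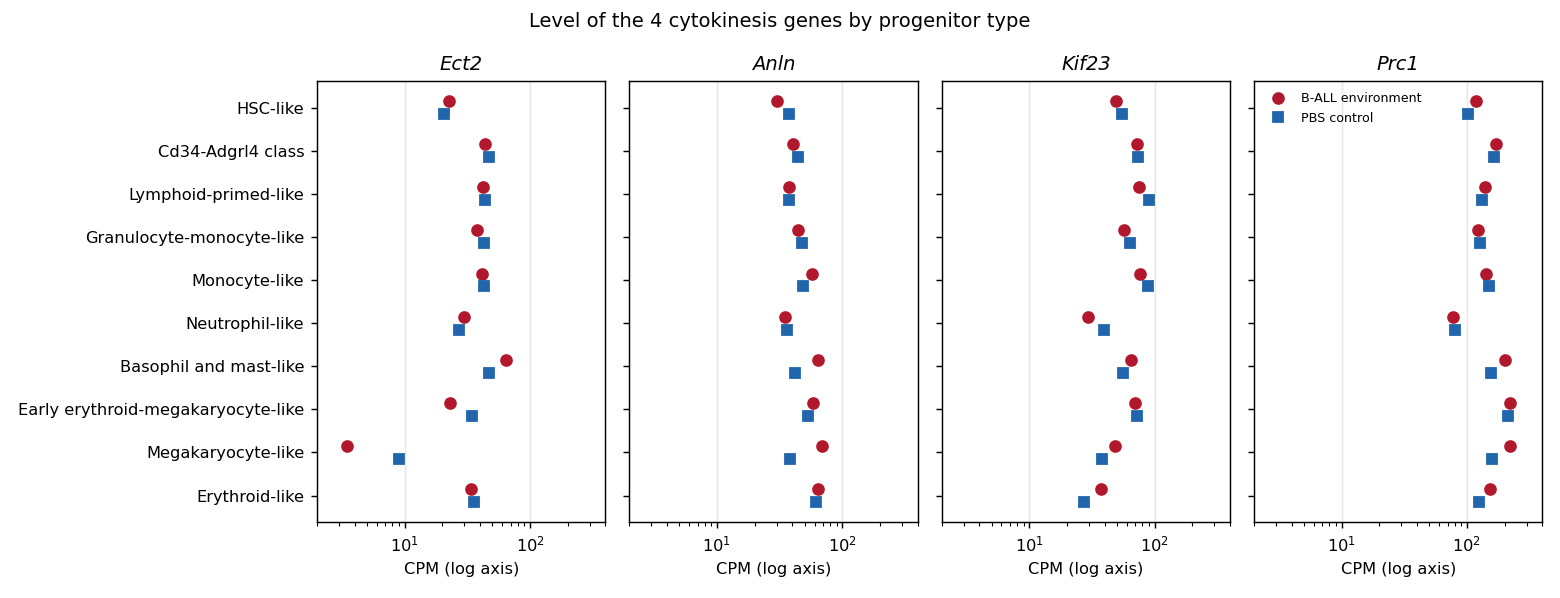
Level of the 4 cytokinesis genes (panels) in CPM on a log axis, by class (rows), B-ALL environment as red circles and PBS control as blue squares. In megakaryocyte-like cells Ect2 lies at 3.47 CPM in the B-ALL environment and 8.98 CPM in PBS controls, left of all other classes.

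Erythroid-like cells had 10 mitosis genes more than 1.5-fold higher and 0 lower in the B-ALL environment, against 9.07% and 10.9% of all genes tested. The median log2 fold was 0.38, and 52 of 56 were above 0. Mki67 had 1010 CPM in the B-ALL environment and 463 CPM in PBS controls (log2 fold 1.13, 1.07 to 1.18), the largest fold of any classical marker outside the megakaryocyte-like class. Psrc1, a spindle protein, was at 0.95 (0.58 to 1.31) and Cdkn3, a phosphatase that acts on cyclin-dependent kinases, at 0.89 (0.57 to 1.21). The lowest were G2e3 at -0.08, Ect2 at -0.08 and Hjurp at -0.07. Depth differed here too, with medians of 12341 UMIs in the B-ALL environment and 8807.5 in PBS controls. Erythroid markers had medians of 30.6 UMIs per 10000 in the B-ALL environment and 41.8 in PBS controls, and granulocyte-monocyte markers 0.841 in the B-ALL environment and 5.12 in PBS controls. Mitochondrial genes gave 5.32% of UMIs in the B-ALL environment and 3.65% in PBS controls. The part of these differences in the folds was not tested. Among cells of 8000 to 16000 UMIs the log2 ratio of the summed share was 0.19 (0.16 to 0.22), against 0.27 over all erythroid-like cells, and the fold of Mki67 was 0.94 (0.82 to 1.06). The second largest map cluster of this class was cluster 16 in the B-ALL environment, with 27.5% of its cells, and cluster 5 in PBS controls, with 35.8%. Without TMM scaling 6 genes were past the fold, on the map 6, and among cells of 8000 to 16000 UMIs 5.

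Basophil and mast-like cells had 12 mitosis genes more than 1.5-fold higher and 0 lower, against 7.81% and 6.72% of all genes tested, with a median log2 fold of 0.34. The kinesin gene Kif2c, which trims microtubules at centromeres, had 54.9 CPM in the B-ALL environment and 26.9 CPM in PBS controls (log2 fold 1.03, 0.63 to 1.43). Kif11, which pushes spindle poles apart, had 209 CPM in the B-ALL environment and 106 CPM in PBS controls (log2 fold 0.99, 0.79 to 1.19). Mki67 was at 0.89 (0.78 to 1.00). Gas2l3 at -0.45, Cdc20 at -0.20 and Knstrn at -0.13 were the lowest. The median cell of the class had a lower share in the B-ALL environment, 0.446%, against 0.477% in PBS controls, while the 90th percentile was 2.53% in the B-ALL environment and 1.73% in PBS controls. Among cells without a high share, 0 genes were higher and 12 lower past the fold. That set was cut by the summed UMIs of these same genes, so this count is no separate result. Median depth was close here, 8444 UMIs in the B-ALL environment and 8474 in PBS controls. Among cells of 8000 to 16000 UMIs, 60 in the B-ALL environment and 175 in PBS controls, the log2 ratio of the summed share was -0.33, against 0.31 over all cells of the class, with 0 genes higher and 19 lower past the fold. On the map 29 genes were higher.

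**Figure D5:**
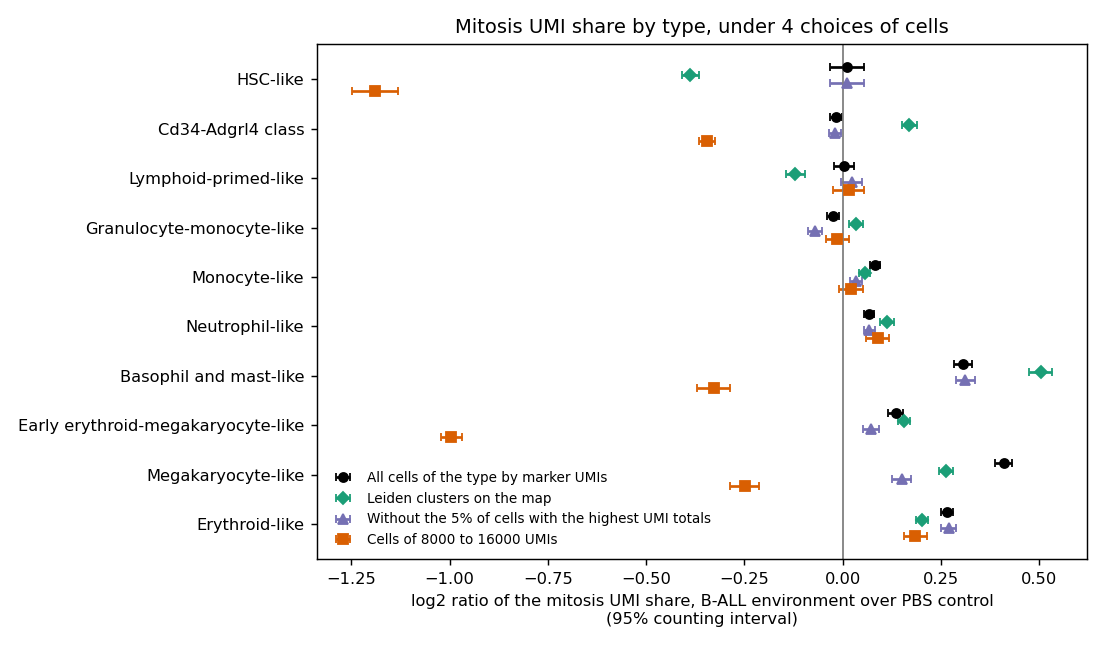
Log2 ratio of the summed mitosis share, B-ALL environment over PBS control (x axis), by class (rows), for all cells of the class (black), map clusters (green), without the 5% deepest cells (violet) and cells of 8000 to 16000 UMIs (orange); lines are 95% counting intervals. The erythroid-like class stays above 0 in all 4, between 0.19 and 0.27. Values of the neutrophil-like and monocyte-like classes also stay above 0 in all 4, but lower. The megakaryocyte-like class lies between -0.25 and 0.41.

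Early erythroid-megakaryocyte-like cells had 4 mitosis genes more than 1.5-fold higher and 0 lower, against 10.2% and 10.9% of all genes tested. These were Gas2l3 at 0.75 (0.46 to 1.06), the kinetochore gene Nuf2 at 0.70 (0.40 to 1.02), the microtubule protein gene Gtse1 at 0.64 and Rangap1 at 0.64. Ect2, Knstrn and Cdc20 were lowest, at -0.57, -0.30 and -0.28. Cells of the B-ALL environment were deeper, with medians of 10846 UMIs, against 6539 in PBS controls. The summed share gave a log2 ratio of 0.13 over all cells of the class and of -0.996 among cells of 8000 to 16000 UMIs, where 0 genes were higher and 50 lower past the fold.

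HSC-like cells had 6 mitosis genes more than 1.5-fold higher and 3 lower, against 14% and 9.31% of all genes tested. With 127 control cells, few UMIs stood behind the control values. Psrc1 was at 1.18 (0.17 to 2.42), the kinetochore gene Ndc80 at 0.96 (0.19 to 1.86) and Cdca2, which brings a phosphatase to chromosomes, at 0.91 (0.19 to 1.74). Ccnb2 had 64.2 CPM in the B-ALL environment and 100.3 CPM in PBS controls (log2 fold -0.64, -0.99 to -0.28). Kif2c at -0.71 and Ccnb1 at -0.45 had intervals that reached above 0. The summed share was 0.630% in the B-ALL environment and 0.625% in PBS controls. In the map clusters with HSC markers its log2 ratio was -0.39, and among cells of 8000 to 16000 UMIs, with 302 cells in the B-ALL environment and 20 in PBS controls, it was -1.19. With a stricter margin between marker lists, which left 394 cells in the B-ALL environment and 24 in PBS controls, it was 0.59 (0.44 to 0.74), and with higher marker cuts 0.10. Past the fold were 1 gene higher and 15 lower on the map, 0 higher and 48 lower at that depth, 36 higher and 0 lower with the stricter margin, and 11 higher and 1 lower with the higher cuts. In these sets the share of all genes past the fold was not counted. The depth band and the stricter margin rest on 20 and 24 control cells. The direction of the share in HSC-like cells turned with how the class was drawn. Median depth was 6778 UMIs in the B-ALL environment and 5765 in PBS controls, and mitochondrial genes gave 6.80% of UMIs in the B-ALL environment and 4.33% in PBS controls. Their part in these values was not tested.

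In the remaining 5 classes 0 to 2 genes were past the fold over all cells of the class. In the Cd34-Adgrl4 class 0 genes were higher and 0 lower past the fold, against 9.05% and 6.15% of all genes tested. There the spindle gene Aspm was highest at 0.48 (0.30 to 0.66), before Cdca2 at 0.38 and Gas2l3 at 0.27, and the centrosome kinase gene Nek2, Cdkn3 and Cks2 were lowest at -0.36, -0.36 and -0.32. On the map 3 genes were higher and 0 lower (share ratio 0.17), and among cells of 8000 to 16000 UMIs 0 were higher and 11 lower (-0.34). Lymphoid-primed-like cells had 2 genes higher and 0 lower, against 8.3% and 6.48%. Those were Aurka at 0.75 (0.28 to 1.23) and Aspm at 0.69 (0.40 to 0.99), before Cdca2 at 0.56, while Ttk, Cdk1 and Cbx5 were lowest at -0.40, -0.33 and -0.32. On the map 0 genes were higher and 2 lower, and among cells of 8000 to 16000 UMIs 12 were higher and 2 lower. Granulocyte-monocyte-like cells had 0 higher and 0 lower, against 6.26% and 6.21%, with Kif11 at 0.28, Bub1 at 0.28 and Ccnb1 at 0.24 on top, and Knstrn at -0.52 (-0.70 to -0.34), Ttk at -0.44 and the spindle gene Hmmr at -0.35 lowest. Monocyte-like cells had 0 higher and 0 lower, against 5.69% and 7.5%. Rangap1 at 0.44, Gtse1 at 0.41 and Aurka at 0.39 were highest there, and Cks2 at -0.32, G2e3 at -0.29 and Nusap1 at -0.25 lowest. Neutrophil-like cells had 0 higher and 0 lower, against 6.06% and 7.98%. In them Rangap1 at 0.45, Aurka at 0.39 and Cenpa at 0.37 were highest, and Kif23 at -0.40, Cks2 at -0.38 and Knstrn at -0.35 lowest. Among cells of 8000 to 16000 UMIs 9 genes were higher and 0 lower in this class.

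The 10 classical markers were all above 0 in the megakaryocyte-like and erythroid-like classes, with 7 and 3 of them past the fold. In basophil and mast-like cells 9 were above 0, and in HSC-like cells 6, with Aurkb highest at 0.61 and Ccnb2 lowest at -0.64. Over all cells 8 were above 0, from Cdc20 at -0.06 to Mki67 at 0.34.

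Genes that act around the mitosis genes were read from 5 further lists over all cells. Over all cells 12.6% of all genes were past 1.5-fold upward and 8.08% downward. The counts in these short lists stand beside those values and are not read as results about the lists. Of 36 S phase genes, 0 were past 1.5-fold in either direction, with a median log2 fold of 0.04. The classes differed in this list. In HSC-like cells 34 were above 0 and 2 below (median 0.27). There 7 were higher and 1 lower past the fold, against 14% and 9.31% of all genes tested. S phase genes gave 0.354% of HSC-like UMIs in the B-ALL environment and 0.302% in PBS controls. In lymphoid-primed-like cells 5 were above 0 and 31 below (median -0.18). Rrm2, a subunit of ribonucleotide reductase, was highest at 0.46, before the cyclin gene Ccne2 at 0.37. Dscc1, a cohesion factor, was lowest at -0.49, and the repressor gene E2f8 was at -0.24. Of 24 other mitosis regulators, 0 were past the fold and 21 were above 0, with a median of 0.12. Among them Ncapg, a condensin subunit, was at 0.39, the phosphatase Cdc25b at 0.35, the kinase Plk1 at 0.21, Cdc25a at -0.07 and the separase inhibitor Pttg1 at -0.25. Of 8 measured cell cycle inhibitors and pocket proteins, 2 were higher past the fold and 0 lower. Cdkn1a, the inhibitor p21, was one of these, with 27.1 CPM in the B-ALL environment and 17.3 CPM in PBS controls (log2 fold 0.65, 0.54 to 0.75). The other was Cdkn1c, the inhibitor p57, which lay under the level for naming and is given after its values were seen, with 12.4 CPM in the B-ALL environment and 2.49 CPM in PBS controls (log2 fold 2.32, 2.08 to 2.57). Within HSC-like cells, the source of 393 of the 958 Cdkn1c UMIs from the B-ALL environment and 28 of 168 from PBS controls, it had 53.3 CPM in the B-ALL environment and 36.0 CPM in PBS controls (log2 fold 0.57, 0.01 to 1.17), under the 1.5-fold limit. Cdkn2d was at 0.36, Cdkn1b at -0.27 and Rb1 at -0.41. Of 15 transcription factors of mitosis genes 1 was higher past the fold, E2f7 at 0.59 (0.46 to 0.73), while Foxm1 was at -0.01, Mybl2, which encodes B-MYB, at 0.07, Lin54 of the DREAM complex at 0.24, E2f3 at -0.23 and the NF-Y subunit gene Nfyb at -0.25. Of 17 genes of the anaphase-promoting complex and its regulators 0 were past the fold, with Cdc27 at 0.30, Ube2s at 0.20, Cdc16 at -0.13 and Anapc13 at -0.46.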

How the data were processed

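The authors' deposited matrix gives unnormalized UMI counts for each gene in each cell. Their cell table gives UMI counts per cell, which equalled the matrix sums in 100% of cells, and the deposited UMAP positions, used as a score for map clusters. Per the submitters' processing notes, Cell Ranger 4, Seurat 4.0.1 and mm10 were used; filters and doublet removal are not given in the sources used here, and no doublets were removed here. Cells were tied to groups by the start of their names, with tm read as the tumor environment.

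Classes were cut at 8 to 40 marker UMIs per 10000, lineage lists first, with cuts set after seeing the scores. Counts were summed per class and group, filtered with filterByExpr and scaled with TMM in edgeR 4.0.16 (R 4.3.3); with 1 sample per group no test was run. Folds have exact conditional intervals, shares of cells exact Clopper-Pearson intervals at 95%. All 56 genes passed the filter in all classes. Named genes are the classical markers, plus, at 10 CPM or more, per role the 2 highest levels and the highest and lowest fold, per class the 3 highest and 3 lowest folds, and per further list the 2 highest and 2 lowest; others were named after their values were seen. The members and lists were chosen with earlier results of these data known. The fold procedure was tested on simulated data. Python 3.11.15, numpy 2.4.6, scipy 1.17.1 and scanpy 1.11.5 were used, and DESeq2 1.42.0 for its size factors as an alternative.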

Additional observations from a re-analysis of the deposited data

Results flagged for a closer look

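Ccnb2, which encodes a B cyclin, was past 1.5-fold in opposite directions in different classes, each with a counting interval that did not reach 0. Its log2 fold, B-ALL environment over PBS control, was 0.74 in megakaryocyte-like cells and 0.68 in erythroid-like cells, and -0.64 in HSC-like cells. In the megakaryocyte map clusters it was 0.23 (0.04 to 0.42), under the 1.5-fold limit, so the rule was not met there. Its values in the erythroid-like and HSC-like classes were not read under other choices of cells. The difference between classes was not tested. It rests on 473 UMIs in the B-ALL environment and 78 in PBS controls among HSC-like cells. No other mitosis gene of at least 10 CPM met this rule.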

How the results depend on the processing

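No paired analysis was possible because the cell names carry no replicate number; for the same reason leaving out each replicate, the replicate block, edgeR's quasi-likelihood test and the DESeq2 Wald test were not run. The log2 ratio of the share over all cells, 0.07, was 0.11 with equal numbers of each class, 0.13 without 8 members also expressed in interphase, 0.0534 without cells of no class and -0.0313 as a mean over cells, so its sign turned only with the last. The share was higher in the B-ALL environment in 8 of 10 classes, in 8 or 9 under each other choice but in 4 among cells of 8000 to 16000 UMIs. Which classes were lower changed with the choice. By markers they were the Cd34-Adgrl4 and granulocyte-monocyte-like classes, and on the map the HSC-like and lymphoid-primed-like classes. By markers, the intervals of the HSC-like (-0.03 to 0.05) and lymphoid-primed-like (-0.02 to 0.03) ratios held 0. The difference in high cells was 1.04 percentage points and -0.16 to 1.45 under other thresholds or without thinning. The difference in low cells, 13.5 points, was 16.2 without thinning, 5.22 under 0.15% and 1.86 under 0.6%, 4.99 with equal numbers of each class and 11.3 without the 8 members at a threshold of 0.1%. The count of genes past 1.5-fold over all cells was 1, and 0 with equal numbers of each class. In megakaryocyte-like cells of 8000 to 16000 UMIs, Ccnb1 was at -0.10 and Aurka at -0.20, reversed from 1.14 and 1.00. Their counting intervals reached 0. The HSC-like count of genes past the fold was 6 higher and 3 lower. It was 36 higher and 0 lower with a stricter margin, 1 higher and 15 lower on the map, and 0 higher and 48 lower in the depth band. The share of all genes past the fold was not counted in these alternative sets, and the causes were not tested. The depth band, the higher cuts, the low-cell settings and the class counts on other cells were chosen after seeing the data.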
